A study of Sus scrofa with 23 samples.

Results

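The proteasome genes and the ubiquitin-conjugating enzyme genes were followed in pig macrophages exposed to bacterial lipopolysaccharide (LPS, an outer membrane component of Gram-negative bacteria). Members were all genes whose symbol begins with PSMA, PSMB, PSMC, PSMD, PSME, PSMF, PSMG or UBE2 and that had a probe set assigned to 1 gene. This gave 64 genes of 6765 with such a probe set, 40 of them proteasome genes and 24 ubiquitin-conjugating enzyme genes. The 64 genes had 86 probe sets (groups of short probes for a transcript), and for the 16 genes with more than 1, the probe set with the highest mean level stood for the gene. No member was left out by a filter on low values.

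The cells were bone marrow-derived macrophages of Large White x Landrace F1 pigs, unmodified, grown from marrow for some days with recombinant human CSF1, the growth factor of macrophages. They were exposed to LPS of Salmonella enterica serotype minnesota Re 595 at 100 ng/ml and lysed at 0, 2, 7 and 24 h, the 0 h cells being the untreated control of the same animals. There were 3 pigs, pigs 1 and 3 labelled male and pig 2 female, of unstated age. Each pig gave duplicate cultures at each time except pig 3 at 24 h, and RNA was measured on 23 Affymetrix porcine arrays.

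The deposited labels of time and animal did not match the arrays' values, and the times and animals used here were inferred from the order of the arrays instead. The first 6 arrays were taken as 0 h, the next 6 as 2 h, the next 6 as 7 h and the last 5 as 24 h, with neighbours as duplicate cultures of animals 1, 2 and 3 in turn. Matching every array to its closest array over all probe sets gave 11 mutual pairs, of which 11 were such neighbours and 0 were duplicates by label. EIF1AY, a Y-linked gene, matched the sex in the label on 15 of 23 arrays and the sex of the animal by order on 23 of 23. TNF, an early LPS target, had a log2 intensity of 5.42 to 6.10 on the arrays taken as 0 h, 12.35 to 12.56 at 2 h, 10.06 to 11.30 at 7 h and 6.20 to 10.66 at 24 h. The order was adopted with these values in view, and the p-values given here take it as correct. By the deposited labels, limma called 0 of 64 members in every comparison of times, with a smallest adjusted p of 0.914. At an unadjusted p under 0.05, labelled times gave 1 member for 24 h against 7 h and 0 in each of the other comparisons. A count of calls among the members cannot show which assignment of times is right. Every time and animal below is the one inferred from array order.

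The proteasome is the protease that degrades proteins tagged with ubiquitin. Its core particle, 20S, is a stack of rings of alpha subunits, which form the gate, and beta subunits, some of which cut proteins. The 19S regulatory particle, made of ATPase and non-ATPase subunits, recognises and unfolds tagged proteins. Ubiquitin-conjugating enzymes, or E2 enzymes, carry ubiquitin from the activating enzyme to the ligases. In cells exposed to interferon, the immunoproteasome subunits PSMB8, PSMB9 and PSMB10 replace the standard catalytic subunits PSMB5, PSMB6 and PSMB7, and the peptides produced can be loaded onto MHC class I molecules. PSME1 and PSME2 together form PA28, a cap that opens the core particle.

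Levels are log2 intensities, so that a difference of 1 is a doubling, and each mean is over 3 animals after duplicate cultures were averaged. Levels of different probe sets are not compared. The median difference between duplicate arrays was 0.071 over the members, with single members from 0.025 to 0.172, against 0.099 over all 6765 genes. Of the members, 37.5% spanned a range of 1 or more over the 23 arrays, against 47.5% of all genes.

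Few members changed at 2 h, and members were called in each direction at 7 h and 24 h, with a median difference from 0 h near 0. At an adjusted p under 0.05 in limma, 49 of 64 members differed among the times, beside a background of 64.4% of all genes (49.3% of all 23999 probe sets). At 2 h, 1 member was higher and 3 were lower than at 0 h, against 5.17% of all genes higher and 9.19% lower. At 7 h, 19 were higher and 16 lower, against 17.5% higher and 34% lower over all genes. At 24 h, 18 were higher and 21 lower than at 0 h, against 18.4% and 28.3% of genes. From 2 h to 7 h, 18 were higher and 8 lower, against 14.7% and 22.7% of genes. From 7 h to 24 h, 12 were higher and 20 lower, where over all genes 19.5% were higher and 14.7% lower. The median member difference from 0 h was −0.01 at 2 h, 0.02 at 7 h and −0.06 at 24 h, beside −0.04, −0.06 and −0.03 over all genes. Of the 40 proteasome genes alone, 16 rose and 8 fell at 7 h and 11 rose and 13 fell at 24 h. All arrays of 7 h lay above all 0 h arrays in 18 members and below them in 15, against 13.94% and 28.03% of all genes. At 24 h this held for 16 and 19 members, against 13.94% and 22.42% of genes. At 2 h it held for 4 and 4, against 5.47% and 11.44%. The comparisons against 0 h share their control arrays. In RNA from whole cultures, fewer cells of a kind and less RNA per cell cannot be told apart.

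The counts were smaller with 2 animals than with 3. At 2 h the 4 calls became 2 without animal 1, 2 without animal 2 and 0 without animal 3. At 24 h the 39 calls became 20 without animal 2. From 7 h to 24 h the 32 calls became 13 without animal 1, 21 without animal 2 and 18 without animal 3. Where a member's call was lost with an animal left out (71 combinations of a call and an animal), the difference kept its direction in 71 and was 50.0% to 135.4% of the full one, with a median of 94.1%. The full difference includes the 2 animals that remain, so a kept direction is not an independent check. For PSMD10 at 24 h, the difference went from 0.65 to 0.33 without animal 2. A lost call alone does not show how much of the difference came from the animal left out.

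**Figure D1:**
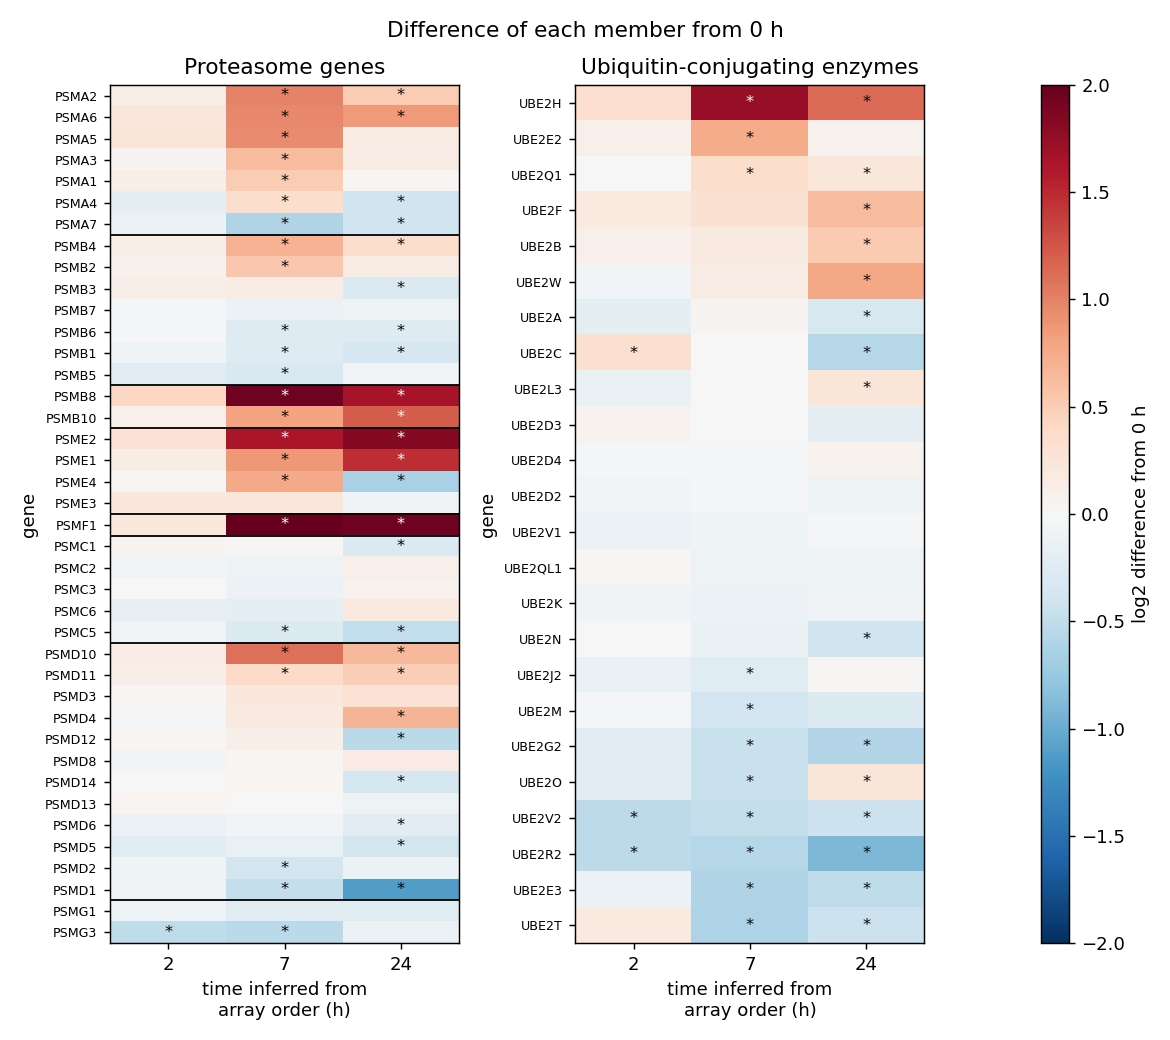
Log2 difference of each of the 64 members from 0 h (colour, from −2 in blue to 2 in red) at 2, 7 and 24 h inferred from array order, with proteasome genes at left in blocks by role (from the top: alpha, standard beta, immunoproteasome, activators, inhibitor, ATPase, non-ATPase, assembly) and ubiquitin-conjugating enzymes at right. Asterisks mark a limma adjusted p under 0.05; PSMB8, PSME2, PSMF1 and UBE2H show the largest rises and PSMD1 at 24 h the largest fall.

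The immunoproteasome subunits and the PA28 cap rose at 7 h and stayed high at 24 h. PSMB8, the immunoproteasome counterpart of PSMB5, had a lowest, median and highest level of 7.49, 7.97 and 8.94 over the 0 h arrays. At 2 h these were 7.86, 8.57 and 9.33, and at 7 h 9.73, 10.19 and 10.47. The 24 h arrays read 8.97 and 9.05 in animal 1, 10.37 and 10.29 in animal 2 and 10.14 in animal 3. All 7 h and 24 h arrays lay above all 0 h arrays, while the 2 h arrays overlapped them. The difference from 0 h was 0.41 (SE 0.21, limma adjusted p = 0.28) at 2 h, 1.95 (SE 0.21, adjusted p = 0.00012) at 7 h and 1.65 (SE 0.21, adjusted p = 0.000297) at 24 h. The rise at 7 h was 3.86-fold and was seen in all 3 animals, from 1.54 to 2.22.

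PSMB10, the counterpart of PSMB7, rose at 7 h and again from 7 h to 24 h. Its mean level was 9.84 ± 0.31 (SD, n = 3) at 0 h, 9.94 ± 0.30 at 2 h, 10.64 ± 0.14 at 7 h and 11.04 ± 0.37 at 24 h. The 0 h arrays ran from 9.41 to 10.20 and the 7 h arrays from 10.53 to 10.85, without overlap. The differences from 0 h were 0.80 (SE 0.13, limma adjusted p = 0.000905) at 7 h and 1.21 (SE 0.13, adjusted p = 0.000112) at 24 h. The step from 7 h to 24 h was 0.41 (SE 0.13, limma adjusted p = 0.0448). This step ran from 0.10 to 0.82 in the single animals, and the 7 h and 24 h arrays overlapped. PSMB9 was not analysed here. In the RefSeq annotation of Sscrofa11.1, PSMB8 lies between the peptide transporter genes TAP2 and TAP1, with PSMB9 next.

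PSME2, a PA28 subunit, had 0 h arrays from 9.86 to 10.38 around a median of 10.12. The 2 h arrays ran from 9.99 to 10.81 and the 7 h arrays from 11.41 to 12.09. The 24 h arrays read 11.52 and 11.61 in animal 1, 12.20 and 12.07 in animal 2 and 12.23 in animal 3. No 7 h or 24 h array overlapped the 0 h arrays. PSME2 rose by 1.63 (SE 0.09, limma adjusted p = 6.73e-06) at 7 h and 1.84 (SE 0.09, adjusted p = 2.4e-06) at 24 h, which are 3.09-fold and 3.58-fold.

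PSME1, the partner of PSME2 in PA28, rose at 7 h and again from 7 h to 24 h. Its mean was 10.41 ± 0.44 (SD, n = 3) at 0 h, 10.55 ± 0.41 at 2 h, 11.27 ± 0.27 at 7 h and 11.88 ± 0.18 at 24 h. The 0 h arrays (10.06 to 10.96) reached just into the range of the 7 h arrays (10.95 to 11.61), animal 3 being the highest at 0 h. The difference from 0 h was 0.14 (SE 0.12, limma adjusted p = 0.531) at 2 h, not called. It was 0.87 (SE 0.12, limma adjusted p = 0.000325) at 7 h and 1.47 (SE 0.12, adjusted p = 2.48e-05) at 24 h. The step from 7 h to 24 h was 0.60 (SE 0.12, limma adjusted p = 0.00452). In the Sscrofa11.1 annotation, PSME1 and PSME2 are neighbours with 1 protein-coding gene between them.

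Of the activators outside PA28, PSME4 rose and then fell, and PSME3 changed only in the later step. PSME4, or PA200, a cap of the nuclear proteasome, had a median of 9.35 over the 0 h arrays (9.34 to 9.64) and 9.99 over the 7 h arrays (9.87 to 10.75). At 24 h it read 8.74 and 8.89 in animal 1, 8.78 and 8.77 in animal 2 and 8.74 in animal 3, below every other array. PSME4 rose by 0.76 (SE 0.17, limma adjusted p = 0.00542) at 7 h and fell by 1.40 (SE 0.17, adjusted p = 0.000419) from 7 h to 24 h. Its fall of 0.64 from 0 h to 24 h (adjusted p = 0.0147) was not called without animal 1 (adjusted p = 0.0551) or animal 2 (0.124). PSME3, the nuclear activator PA28 gamma, had differences of 0.21, 0.22 and −0.08 at 2, 7 and 24 h, none called, and fell by 0.30 (SE 0.09, adjusted p = 0.0332) from 7 h to 24 h.

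PSMF1, or PI31, first described as an inhibitor of the core particle, had the largest difference from 0 h of any member at 7 h. Its arrays ran from 7.00 to 7.60 (median 7.35) at 0 h, 7.25 to 7.72 at 2 h and 9.08 to 9.53 (median 9.32) at 7 h. At 24 h they read 8.27 and 8.29 in animal 1, 10.17 and 10.05 in animal 2 and 9.38 in animal 3, all above 0 h but spread widely. The difference from 0 h was 1.99 (SE 0.30, limma adjusted p = 0.000637) at 7 h and 1.94 (SE 0.30, adjusted p = 0.000846) at 24 h. A second PSMF1 probe set gave 1.26 and 0.84, also called at each of these times.

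**Figure D2:**
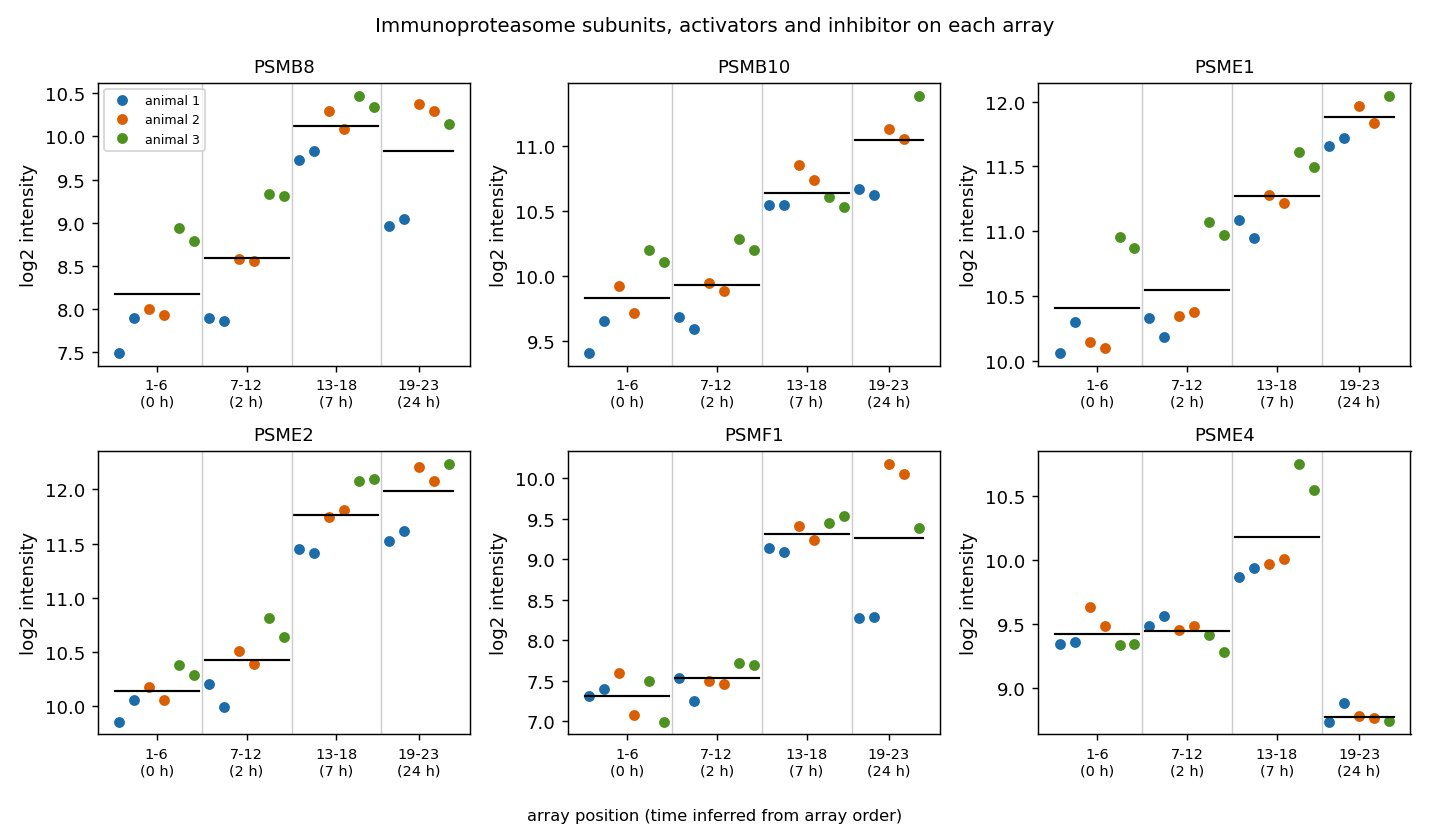
Log2 intensity of PSMB8, PSMB10, PSME1, PSME2, PSMF1 and PSME4 (vertical axes, each with its own scale) on the 23 arrays in order (horizontal axis), with points coloured by animal and black lines at the mean of 3 animals for each time inferred from array order. PSMB8 runs from 7.49 to 8.94 at 0 h and 9.73 to 10.47 at 7 h; PSME4 is lowest on the 24 h arrays, at 8.74 to 8.89.

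None of the 3 standard catalytic subunits was called higher than 0 h at any time, and 2 of them fell. Of all genes, 5.17% were higher and 9.19% lower at 2 h, 17.5% and 34% at 7 h, and 18.4% and 28.3% at 24 h. PSMB5, which carries the chymotrypsin-like site, had 0 h arrays of 11.12 to 11.38 and 7 h arrays of 10.87 to 11.08. It fell by 0.30 (SE 0.08, limma adjusted p = 0.0127) at 7 h and differed by −0.05 (SE 0.08, adjusted p = 0.681) at 24 h. From 7 h to 24 h PSMB5 rose by 0.25 (SE 0.08, limma adjusted p = 0.0422). PSMB6, which carries the caspase-like site, fell by 0.25 (SE 0.06, adjusted p = 0.00978) at 7 h and by 0.26 (SE 0.06, adjusted p = 0.00896) at 24 h. PSMB7, which carries the trypsin-like site, differed by −0.12 (SE 0.07, adjusted p = 0.201) at 7 h and −0.10 (SE 0.07, adjusted p = 0.299) at 24 h, and its arrays of all times overlapped. The fall of PSMB6 at 7 h was not called with any animal left out (adjusted p = 0.0534 to 0.133), at differences of −0.22 to −0.27. Those of PSMB5 at 7 h (0.103 and 0.104) and PSMB6 at 24 h (0.0896 and 0.109) were not called without animal 1 or 2. The difference between a standard subunit and its counterpart was not itself tested.

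Among the non-catalytic beta subunits, PSMB4 and PSMB2 rose at 7 h. PSMB4 went from 11.75 ± 0.05 (SD, n = 3) at 0 h to 12.44 ± 0.15 at 7 h, a difference of 0.69 (SE 0.10, limma adjusted p = 0.000502), and the arrays of these times did not overlap. At 24 h it was 0.35 above 0 h (adjusted p = 0.0212), a call lost without animal 2 (0.155) or animal 3 (0.117) and without the animal term (0.0613). PSMB2 rose by 0.55 (SE 0.10) at 7 h. PSMB1 fell by 0.26 at 7 h and 0.34 at 24 h, and PSMB3 fell by 0.29 at 24 h. The calls of PSMB1 and PSMB3 did not all hold with animals left out (adjusted p up to 0.148 and 0.18). Over the 7 standard beta subunits, 2 were higher and 3 lower at 7 h, with a median difference of −0.12. Of all genes, 17.5% were higher and 34% lower at this time.

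Of the 7 alpha subunits, 6 rose and 1 fell at 7 h, with a median difference of 0.62 against −0.06 over all genes. Of all genes, 17.5% were higher and 34% lower at 7 h. PSMA2 had 0 h arrays of 12.27 to 12.48 and 7 h arrays of 13.36 to 13.42. It rose by 1.00 (SE 0.11, limma adjusted p = 0.000151), a 2.0-fold change with 0.96 to 1.03 in the single animals. PSMA6 had 0 h arrays of 12.65 to 12.80 and 7 h arrays of 13.61 to 13.73, a rise of 0.96 (SE 0.09, adjusted p = 6.76e-05). PSMA5 had 0 h arrays of 10.74 to 10.97 and 7 h arrays of 11.62 to 11.95, a rise of 0.94 (SE 0.13, adjusted p = 0.00035). In none of these genes did the 0 h and 7 h arrays overlap. Of all genes, 13.94% had all 7 h arrays above all 0 h arrays. PSMA3 rose by 0.62, PSMA1 by 0.51 and PSMA4 by 0.36 at 7 h. The PSMA4 call was lost without animal 2 or 3 (adjusted p = 0.105 and 0.197) and when the arrays were quantile normalized again (0.0948).

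PSMA7 was the alpha subunit that fell. Its arrays ran from 12.98 to 13.12 at 0 h, 12.78 to 13.05 at 2 h and 12.22 to 12.60 at 7 h. The fall was 0.61 (SE 0.08, limma adjusted p = 0.000321) at 7 h and 0.40 (SE 0.08, adjusted p = 0.00358) at 24 h, lower in 3 of 3 animals at each time. The fall at 24 h was not called without animal 2 (adjusted p = 0.0691).

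From 7 h to 24 h, 5 of the 7 alpha subunits fell and 0 rose, beside 14.7% of all genes lower and 19.5% higher. PSMA5 fell by 0.79 (SE 0.13, limma adjusted p = 0.00184) and was 0.15 (SE 0.13, adjusted p = 0.425) from its 0 h level. PSMA2 fell by 0.49 (SE 0.11, adjusted p = 0.0122) and stayed 0.51 above 0 h (adjusted p = 0.00671, lost without animal 2 or 3, at 0.0703 and 0.0687). PSMA6 differed by −0.11 (SE 0.09, adjusted p = 0.417) between 7 h and 24 h and was 0.85 (SE 0.09, adjusted p = 0.000114) above 0 h at 24 h. PSMA4 ended 0.39 below 0 h, with an adjusted p of 0.0233 that became 0.146 without animal 1 and 0.127 without animal 2.

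**Figure D3:**
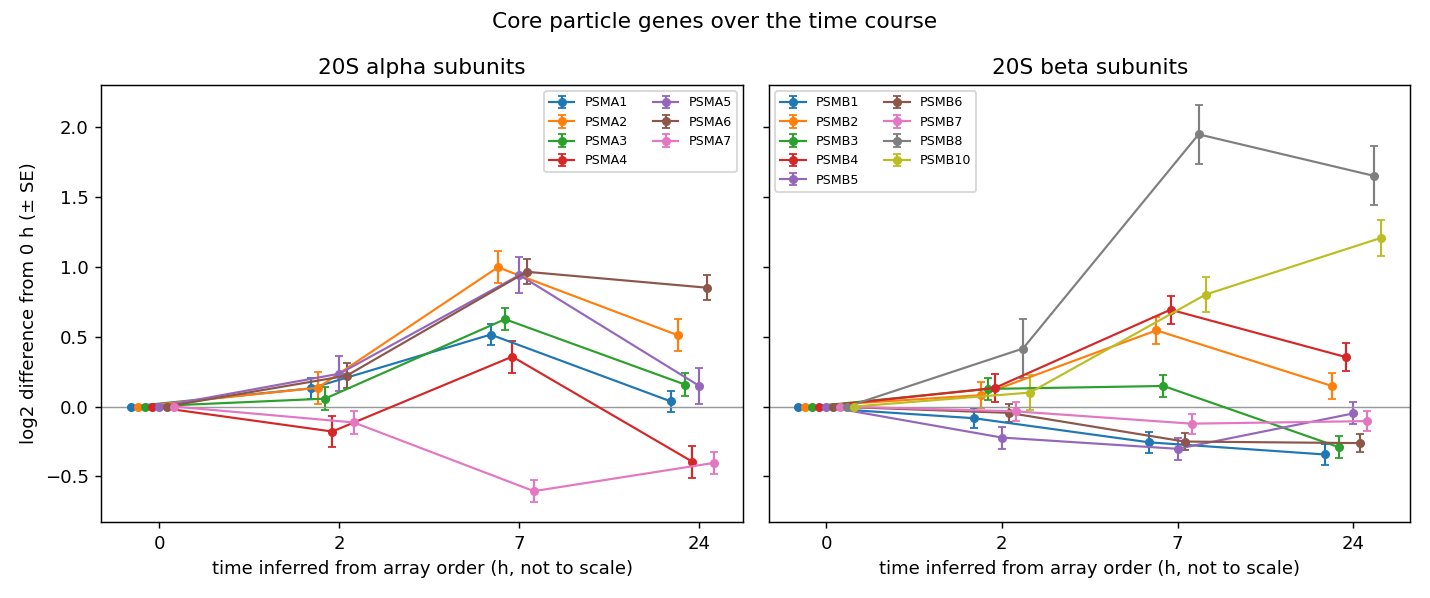
Log2 difference from 0 h (vertical axis, with SE of the limma fit) of the alpha subunit genes at left and the beta subunit genes at right, against time inferred from array order (horizontal axis, not to scale). PSMA7 lies below 0 at 7 h (−0.61) while the other alpha subunits lie at 0.36 to 1.00; PSMB8 and PSMB10 reach 1.95 and 1.21, and PSMB5, PSMB6 and PSMB7 stay between −0.30 and −0.03.

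Animal 1 had the lowest change from 7 h to 24 h in many of the genes that had risen at 7 h. Of the 19 members higher at 7 h, the change from 7 h to 24 h was lowest in animal 1 in 14, in animal 3 in 5 and in animal 2 in 0. The median change of these 19 members was −0.67 in animal 1, −0.06 in animal 2 and −0.42 in animal 3. Over all 1185 genes higher at 7 h, animal 1 had the lowest change in 46.8%, with medians of −0.28, −0.05 and −0.29. These genes were chosen by their 7 h values, which also enter the change. Without that choice, animal 1 had the lowest change in 54.7% of all 64 members and 30.9% of all 6765 genes. PSMA5, for example, read 10.55 and 10.65 in animal 1 at 24 h, 11.52 and 11.36 in animal 2 and 11.10 in animal 3. Its means at 7 h were 11.69, 11.91 and 11.93 in animals 1, 2 and 3, so that animal 1 was lowest then too. The mean level of 8 interferon response genes at 24 h was 11.885 in animal 1, 12.997 in animal 2 and 12.489 in animal 3, after 12.86, 12.81 and 12.94 at 7 h. No test of these animal patterns was made.

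Of the 5 ATPase subunits of the 19S particle, 0 rose and 1 fell at 7 h, and 0 rose and 2 fell at 24 h. The shares of all genes that rose and fell were 17.5% and 34% at 7 h, and 18.4% and 28.3% at 24 h. PSMC5 had 0 h arrays of 10.72 to 10.96 and 24 h arrays of 10.10, 10.28, 10.45, 10.46 and 10.42, without overlap. It fell by 0.50 (SE 0.09, limma adjusted p = 0.00194) at 24 h. Its fall of 0.28 at 7 h (adjusted p = 0.0303) was lost with any animal left out (0.0711 to 0.213). PSMC1 fell by 0.29 (SE 0.08, adjusted p = 0.0264) at 24 h, which was also lost with any animal left out (0.0513 to 0.219). PSMC6 rose by 0.37 (SE 0.07, adjusted p = 0.0032) from 7 h to 24 h, and PSMC3 was not called. For PSMC2 the probe sets disagreed: the brightest gave −0.11 at 7 h and 0.10 at 24 h, not called, and the others gave −0.77 and −0.82, and −0.50 and −0.67, all called.

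Among the 12 non-ATPase genes of the PSMD series, 2 rose and 2 fell at 7 h and 3 rose and 5 fell at 24 h. In percent these were 16.67 and 16.67 at 7 h and 25.0 and 41.67 at 24 h. The shares of all genes were 17.5% and 34%, and 18.4% and 28.3%. PSMD1, the largest subunit of the 19S base, had the largest fall from 0 h of any member. Its arrays ran from 11.13 to 11.48 at 0 h, 11.04 to 11.36 at 2 h and 10.62 to 11.01 at 7 h. At 24 h they read 9.97 and 10.01 in animal 1, 10.18 and 10.04 in animal 2 and 10.33 in animal 3. The 24 h arrays were below all others. PSMD1 fell by 0.47 (SE 0.11, limma adjusted p = 0.00593) at 7 h, not called without animal 1 (0.0578), and by 1.12 (SE 0.11, adjusted p = 5.83e-05) at 24 h, when a second probe set gave −1.17. PSMD12, a subunit of the 19S lid, fell by 0.53 (SE 0.08) at 24 h.

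Other PSMD genes rose. PSMD10, or gankyrin, an assembly chaperone of the 19S base, had 0 h arrays of 8.18 to 8.43 and 7 h arrays of 9.05 to 9.61, a rise of 1.10 (SE 0.20, limma adjusted p = 0.00204). At 24 h it read 8.72 and 8.68 in animal 1, 9.73 and 9.66 in animal 2 and 8.45 in animal 3, so that only animal 2 stayed at its 7 h level. The 24 h difference of 0.65 (adjusted p = 0.033) was lost without animal 1 (0.0814) or animal 2 (0.175) and without the animal term (0.101). PSMD4, a ubiquitin receptor of the proteasome, was 0.18 (adjusted p = 0.192) above 0 h at 7 h and rose by 0.67 (SE 0.10, adjusted p = 0.000808) at 24 h. PSMD4 read 10.54 to 10.85 at 0 h and 11.14, 11.17, 11.60, 11.55 and 11.40 at 24 h. PSMD11, a lid subunit, rose by 0.38 at 7 h and 0.50 at 24 h, each call lost with at least 1 animal left out (adjusted p from 0.0563 to 0.117).

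The rest of the PSMD series held 4 smaller falls and 3 genes that were not called against 0 h. PSMD2, a subunit of the base, fell by 0.36 at 7 h. PSMD14, the deubiquitinase of the lid, fell by 0.35 at 24 h, PSMD5, a chaperone of the base, by 0.36, and PSMD6, a lid subunit, by 0.21. The 24 h calls of PSMD14, PSMD5 and PSMD6 were each lost with 2 or 3 of the animals left out in turn (adjusted p from 0.0547 to 0.208). PSMD3 (0.21 at 7 h and 0.29 at 24 h), PSMD8 and PSMD13 were the genes not called. Of the chaperones that assemble the core particle, PSMG3 fell by 0.51 (SE 0.09, limma adjusted p = 0.00678) at 2 h and 0.54 (SE 0.09, adjusted p = 0.00135) at 7 h. PSMG3 differed from 0 h by −0.12 at 24 h, not called, and its arrays of all times overlapped. Its 2 h call was lost without animal 1 or 3 (0.0723 and 0.0707) and without the animal term (0.175), and PSMG1 was not called.

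**Figure D4:**
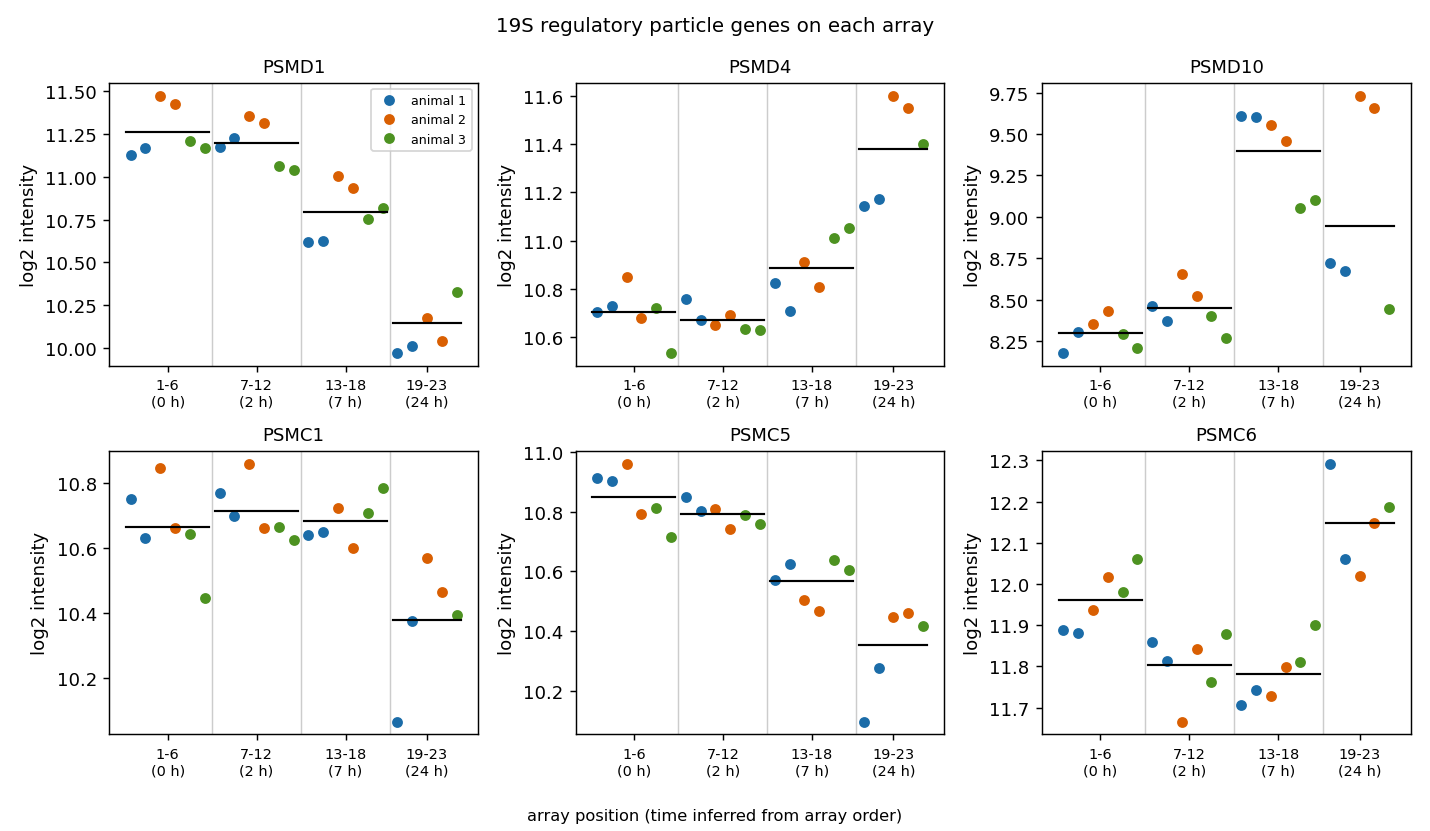
Log2 intensity of PSMD1, PSMD4, PSMD10, PSMC1, PSMC5 and PSMC6 (vertical axes, each with its own scale) on the 23 arrays in order (horizontal axis), coloured by animal, with black lines at the mean of 3 animals for each time inferred from array order. PSMD1 is lowest at 24 h, at 9.97 to 10.33, and PSMD4 highest at 24 h, at 11.14 to 11.60.

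Of the 24 ubiquitin-conjugating enzyme genes, 1 rose and 2 fell at 2 h, 3 rose and 8 fell at 7 h, and 7 rose and 8 fell at 24 h. In percent these were 4.17 and 8.33 at 2 h, 12.5 and 33.33 at 7 h and 29.17 and 33.33 at 24 h, beside the shares of all genes of 5.17% and 9.19%, 17.5% and 34%, and 18.4% and 28.3%. UBE2H, the E2 enzyme that works with the CTLH ligase complex, had the largest rise of these genes. Its arrays ran from 10.20 to 10.53 (median 10.45) at 0 h, 10.63 to 10.91 at 2 h and 12.03 to 12.35 at 7 h. The 24 h arrays read 11.16 and 11.08 in animal 1, 12.01 and 12.04 in animal 2 and 11.55 in animal 3, and no later array overlapped the 0 h arrays. UBE2H rose by 1.74 (SE 0.16, limma adjusted p = 6.15e-05) at 7 h, or 3.35-fold, and was 1.14 (SE 0.16, adjusted p = 0.000514) above 0 h at 24 h. Another UBE2H probe set gave 1.08 and 0.63. The 2 h difference of 0.34 was not called (adjusted p = 0.242).

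UBE2R2, an E2 enzyme of cullin ligases, fell early and stayed low. Its 0 h arrays ran from 7.93 to 8.21, its 2 h arrays from 7.20 to 7.85 and its 7 h arrays from 7.23 to 7.74. The 24 h arrays read 7.41 and 7.24 in animal 1, 6.92 and 6.96 in animal 2 and 7.16 in animal 3. All later arrays lay below all 0 h arrays. The falls were 0.52 (SE 0.09, limma adjusted p = 0.00541), 0.57 (SE 0.09, adjusted p = 0.000877) and 0.89 (SE 0.09, adjusted p = 8.73e-05) at 2, 7 and 24 h. The first was not called without animal 2 (0.0652), without animal 3 (0.0729) or without the animal term (0.0509).

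UBE2V2, a partner of UBE2N that has no catalytic cysteine of its own, also fell by 2 h. It went from 10.78 ± 0.01 (SD, n = 3) at 0 h to 10.25 ± 0.13 at 2 h, 10.30 ± 0.05 at 7 h and 10.34 ± 0.08 at 24 h, and no later array overlapped the 0 h arrays. The falls were 0.53 (SE 0.08, limma adjusted p = 0.00226), 0.48 (SE 0.08, adjusted p = 0.000882) and 0.43 (SE 0.08, adjusted p = 0.00186), the first not called without animal 3 (0.0626). UBE2N, which with its partners builds lysine-63-type chains in innate immune signalling, differed by −0.01 at 2 h and −0.13 at 7 h. It fell by 0.39 (SE 0.07, adjusted p = 0.00157) at 24 h, when its arrays of 10.78 to 10.97 lay below the 0 h arrays of 11.25 to 11.37. UBE2V1, the other partner of UBE2N, was not called at any time (−0.12, −0.09 and −0.03), while a dimmer UBE2V1 probe set was higher at 2 h (0.32) and 7 h (0.35).

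UBE2C, the E2 enzyme of the anaphase-promoting complex, was the only member higher at 2 h in this fit. Its arrays ran from 9.18 to 9.40 at 0 h, 9.48 to 9.70 at 2 h, 9.19 to 9.39 at 7 h and 8.58 to 8.83 at 24 h. It rose by 0.32 (SE 0.07, limma adjusted p = 0.0114) at 2 h, lost with any animal left out (0.0876 to 0.16), and fell by 0.57 (SE 0.07, adjusted p = 0.000165) at 24 h. A UBE2C probe set with a mean level of only 4.57 showed 0.08 and −0.02. UBE2T, the E2 enzyme of the Fanconi anaemia pathway, had arrays of 8.53 to 8.58 at 0 h and 7.61 to 8.12 at 7 h. It fell by 0.62 (SE 0.12, adjusted p = 0.00207) at 7 h and by 0.43 (SE 0.12, adjusted p = 0.0172) at 24 h, the latter lost without animal 1 (0.0665) or animal 2 (0.156). A dimmer UBE2T probe set gave −0.41 and −0.16 at these times, and its 24 h value was not called.

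Of 18 listed cell cycle genes, 14 were measured. Among these, 7 were higher and 2 lower at 7 h than at 0 h, and 2 were higher and 4 lower at 24 h. From 7 h to 24 h, 0 were higher and 7 lower. The shares of all genes higher and lower were 17.5% and 34% at 7 h and 18.4% and 28.3% at 24 h. From 7 h to 24 h they were 19.5% and 14.7%. The mean level of the list ran from 8.17 to 8.41 over the 0 h arrays, 8.24 to 8.63 at 2 h, 8.40 to 8.60 at 7 h and 7.88 to 8.33 at 24 h. Its part in the changes of UBE2C and UBE2T was not tested.

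Other E2 genes rose late. UBE2W, which attaches ubiquitin to the amino terminus of proteins, had 0 h arrays of 7.65 to 8.20. At 24 h it read 9.03 and 8.84 in animal 1, 8.44 and 8.67 in animal 2 and 8.64 in animal 3, all above 0 h. UBE2W was 0.15 above 0 h at 7 h, not called, and rose by 0.78 (SE 0.13, limma adjusted p = 0.00121) at 24 h. Its other probe set gave 0.59 at each of these times and was called at both. UBE2F, an E2 enzyme for NEDD8, rose by 0.64 at 24 h, lost without animal 2 (0.0564), and UBE2B, an E2 enzyme of DNA damage tolerance, rose by 0.52. UBE2L3, which serves the LUBAC and parkin ligases, was 0.24 (SE 0.07, adjusted p = 0.0176) above 0 h at 24 h, lost with any animal left out (0.0589 to 0.153), and its other probe set gave 0.02.

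UBE2E3 and UBE2G2 fell from 7 h on. UBE2E3 had arrays of 10.65 to 10.91 at 0 h and 9.98 to 10.51 at 7 h, and fell by 0.60 (SE 0.08, limma adjusted p = 0.000364) at 7 h and 0.50 (SE 0.08, adjusted p = 0.00112) at 24 h. UBE2E2, a close relative of UBE2E3, instead rose by 0.74 (SE 0.15, adjusted p = 0.0036) at 7 h and was 0.07 from 0 h at 24 h. UBE2G2, an E2 enzyme of degradation at the endoplasmic reticulum, had arrays of 8.13 to 8.41 at 0 h, 7.59 to 7.99 at 7 h and 7.60 to 7.72 at 24 h. It fell by 0.44 (SE 0.09, adjusted p = 0.00301) and 0.58 (SE 0.09, adjusted p = 0.000717). UBE2M, an E2 enzyme for NEDD8, fell by 0.38 (SE 0.10, adjusted p = 0.0161) at 7 h, lost without animal 2 or 3 (0.116 and 0.0853).

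By the probe sets that stood for the genes, the remaining E2 genes had called differences from 0 h of up to 0.44 in size or none called. UBE2O, a large enzyme that combines E2 and ligase activity, was 0.44 below 0 h at 7 h and 0.25 above it at 24 h, but a dimmer probe set gave 0.08 and 0.15 and was not called. The UBE2O call at 24 h was lost with any animal left out (adjusted p from 0.0629 to 0.211). UBE2Q1 rose by 0.36 at 7 h and by 0.23 at 24 h, UBE2J2 fell by 0.24 at 7 h and UBE2A fell by 0.32 at 24 h. Each of these calls of UBE2Q1, UBE2J2 and UBE2A was lost with at least 1 animal left out (adjusted p from 0.0611 to 0.3). The differences were then −0.22 to −0.26 for UBE2J2, 0.31 and 0.20 to 0.28 for UBE2Q1 at 7 h and 24 h, and −0.19 and −0.29 for UBE2A. UBE2D2 and UBE2D3, E2 enzymes used by many ligases, were not called (differences of −0.19 to 0.07), although 1 other UBE2D2 probe set fell by 0.54 at 7 h and 0.55 at 24 h. UBE2D4, UBE2K and UBE2QL1 were not called, and UBE2QL1 was dim on all arrays (4.08 to 5.11). UBE2L6, UBE2S, UBE2D1 and UBE2Z were not analysed here.

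**Figure D5:**
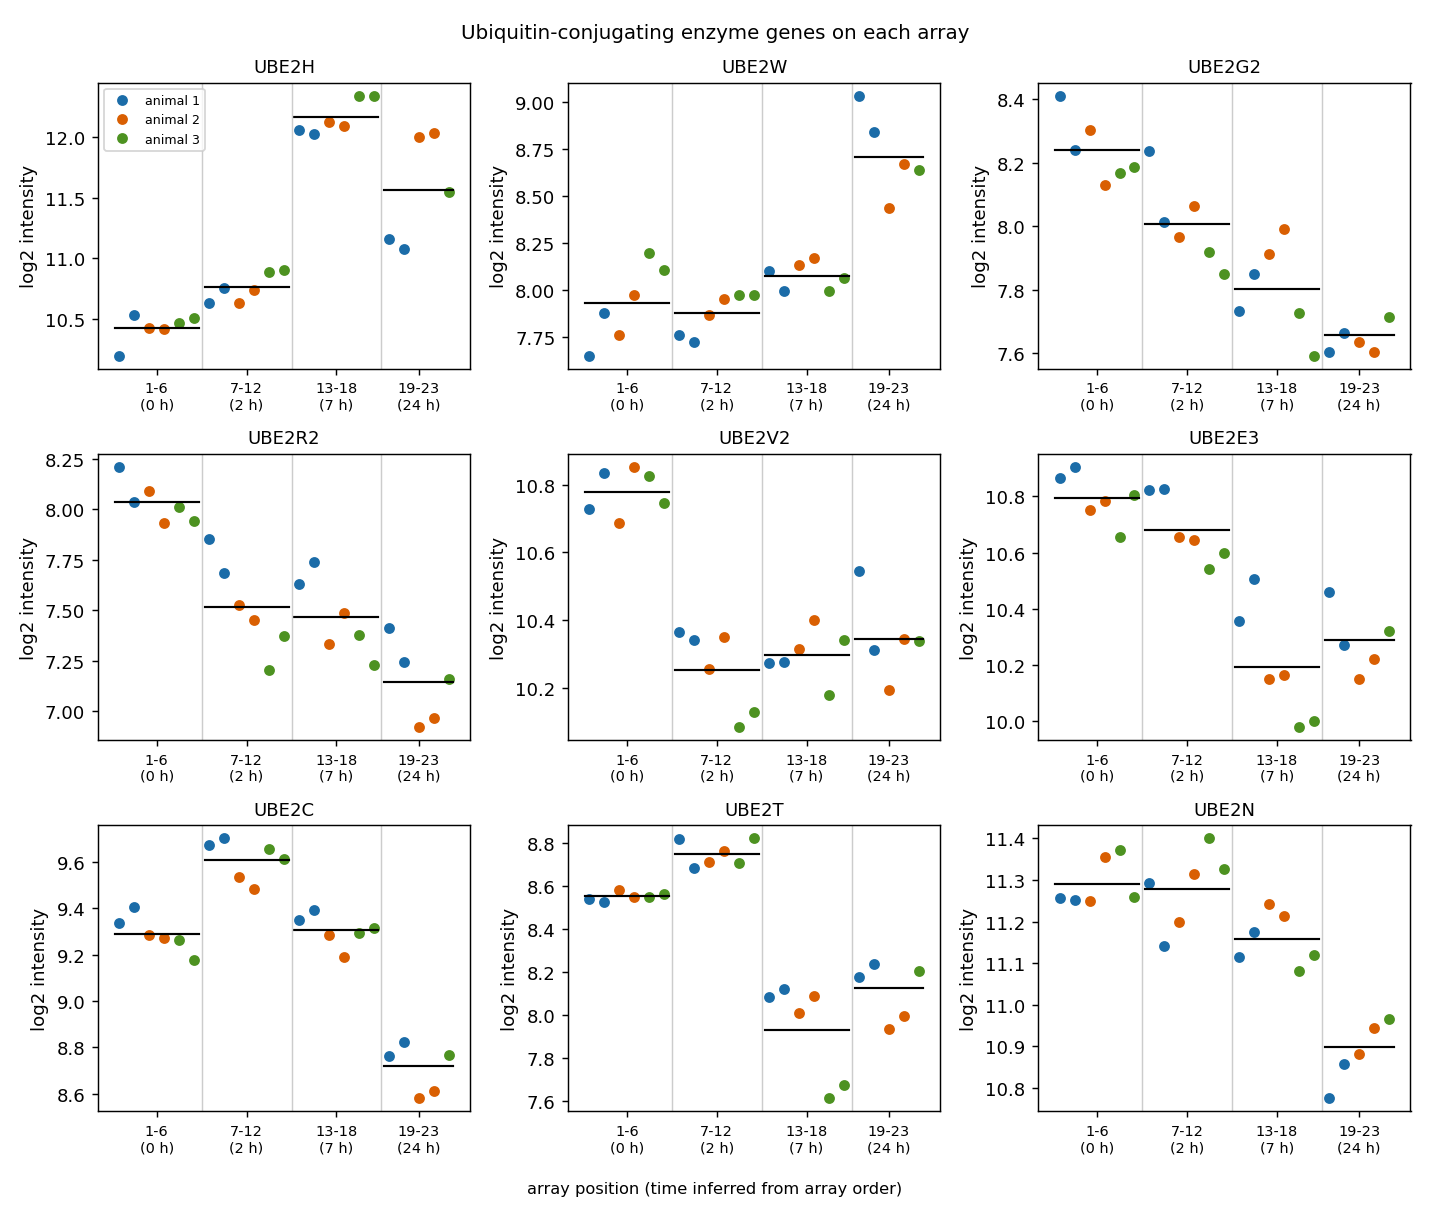
Log2 intensity of UBE2H, UBE2W, UBE2G2, UBE2R2, UBE2V2, UBE2E3, UBE2C, UBE2T and UBE2N (vertical axes, each with its own scale) on the 23 arrays in order (horizontal axis), coloured by animal, with black lines at the mean of 3 animals for each time inferred from array order. UBE2H rises from 10.20 to 10.53 at 0 h to 12.03 to 12.35 at 7 h, and UBE2R2 and UBE2V2 lie below their 0 h arrays at all later times.

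Levels of 5 members differed between the animals (limma F test, 5 of 64 against a background of 12.8% of genes), and 4 of them were the immunoproteasome and PA28 genes. Over all times, PSME2 averaged 10.76, 11.12 and 11.35 in animals 1, 2 and 3 (adjusted p = 0.00331), and PSME1 averaged 10.79, 10.91 and 11.38 (adjusted p = 0.011). PSMB8 averaged 8.59, 9.27 and 9.68 (adjusted p = 0.0137) and PSMB10 10.09, 10.41 and 10.59 (adjusted p = 0.0462). In these averages animal 1 was lowest and animal 3 highest for each of these genes, but only PSME2 kept this order at every time. PSMB8 at 24 h, for example, was 10.33 in animal 2 and 10.14 in animal 3. PSMG3, the other member called, averaged 6.87, 7.32 and 7.27 (adjusted p = 0.0121). With animal 1 left out 0 members were called between the animals, with animal 2 left out 4 and with animal 3 left out 1. The mean of the interferon response list in animals 1, 2 and 3 was 8.52, 7.92 and 7.61 at 0 h, 10.21, 11.40 and 12.14 at 2 h, 12.86, 12.81 and 12.94 at 7 h and 11.89, 12.997 and 12.49 at 24 h. The stromal list was highest in animal 1 at every time, with 8.21, 6.47 and 6.28 at 0 h and 7.47, 5.78 and 5.67 at 24 h. The granulocyte list was also highest in animal 1, with 8.64, 7.37 and 7.78 at 0 h and 9.50, 8.95 and 8.96 at 24 h. The part of these lists in the differences between animals was not tested.

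Genes that act with the members were taken from lists, whose counts are given by limma adjusted p under 0.05. For all such counts, the shares of all genes higher and lower were 5.17% and 9.19% at 2 h. They were 17.5% and 34% at 7 h, and 18.4% and 28.3% at 24 h. Of 6 measured peptide loading genes, 1 rose (TAP1, by 1.57) and 0 fell at 2 h. At 7 h 3 rose and 1 fell, and at 24 h 4 rose and 2 fell. TAP1, which carries proteasome products into the endoplasmic reticulum, rose by 3.41 (SE 0.39) at 7 h and 2.67 (SE 0.39) at 24 h, and TAPBP, which joins it to MHC class I, by 1.42 (SE 0.11) and 2.02 (SE 0.11). The chaperones CALR and CANX fell by 0.44 and 0.48 at 24 h. All 8 measured interferon response genes rose at 7 h and at 24 h, with a median difference of 5.11 at 7 h, beside the rises of PSMB8, PSMB10, PSME1 and PSME2. At 2 h, 7 of these 8 genes were already higher, with a median difference of 3.25 over the list. PSMB8, PSMB10, PSME1 and PSME2 were not called at 2 h. The part of the interferon response genes in the rises of these members was not tested.

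Of 7 measured proteasome partners, 0 rose and 2 fell at 7 h, and 0 rose and 4 fell at 24 h. VCP, the segregase that extracts ubiquitin-tagged proteins, fell by 1.08 (SE 0.10) at 24 h. PAAF1, a chaperone of the 19S base, fell by 0.50 (SE 0.09) at 2 h and 0.56 (SE 0.09) at 7 h. The 14 activating enzymes and ubiquitin-like proteins had 3 rises and 6 falls at 7 h and 3 rises and 4 falls at 24 h. The ubiquitin-like proteins ISG15 and UBD rose by 5.61 (SE 0.47) and 5.08 (SE 0.77) at 7 h, while NAE1, a subunit of the NEDD8 activating enzyme, fell by 1.28 (SE 0.11) and NEDD8 by 0.38 (SE 0.07).

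Of 14 ligases, 5 rose and 0 fell at 2 h, 6 rose and 2 fell at 7 h, and 7 rose and 2 fell at 24 h. The largest rises were those of DTX3L, 3.20 (SE 0.36) at 7 h, and RNF19B, 1.96 (SE 0.17), and RNF19B had risen by 1.75 (SE 0.17) at 2 h. TRAF6, a ligase of Toll-like receptor signalling that works with UBE2N, rose by 1.10 (SE 0.14) at 2 h and was 0.15 above 0 h at 7 h. Of 15 deubiquitinases, 5 rose and 7 fell at 7 h, and 5 rose and 4 fell at 24 h. USP18, which removes ISG15, rose by 4.61 (SE 0.58) at 7 h, CYLD, which removes lysine-63-type chains, by 1.53 (SE 0.09), and BRCC3 fell by 1.26 (SE 0.11).

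Macrophage markers were measured on all arrays, and single markers of macrophages and of other cells changed at 7 h and 24 h. Beside the marker counts, 17.5% of all genes rose and 34% fell at 7 h, and 18.4% and 28.3% at 24 h. The mean level of 8 macrophage markers ran from 9.55 to 10.31 over the arrays, with 2 rises and 3 falls at 7 h and 4 rises and 2 falls at 24 h. CD14, the LPS co-receptor, rose by 1.78 at 24 h, CD163, a haemoglobin scavenger receptor, fell by 0.96 at 7 h and was 1.07 above 0 h at 24 h, and MRC1 fell by 0.51 at 24 h. The probe set of ITGAM was dim (means of 4.71 to 4.79).

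Of 4 granulocyte markers, 2 rose and 1 fell at 7 h and 3 rose and 1 fell at 24 h. S100A9 rose by 0.85 at 7 h and 3.30 at 24 h and LTF by 0.47 and 2.50, while ELANE fell by 0.61 and 1.79. The granulocyte list averaged 7.28 to 8.83 at 0 h, 7.66 to 9.21 at 7 h and 8.75 to 9.66 at 24 h. Of 5 stromal markers, 1 rose and 1 fell at 7 h (COL3A1 by 0.78 and DCN by 0.42), and 1 rose and 2 fell at 24 h. The stromal list averaged 6.26 to 8.21 at 0 h, 6.25 to 8.03 at 7 h and 5.67 to 7.51 at 24 h. Of 5 endothelial markers, 0 rose and 2 fell at 7 h and at 24 h, among them TEK by 0.75 at 7 h. Of 2 erythroid markers, 0 rose and 1 fell at 7 h (HBB by 1.15) and 1 rose and 1 fell at 24 h. Of 6 T and NK cell markers, which averaged 4.68 to 5.77, 1 rose and 0 fell at 7 h and 2 rose and 0 fell at 24 h. CD2 was 2.57 above 0 h at 7 h and 3.21 at 24 h (called at each), and LCK was 0.24 above at 24 h. CD3D, CD3E, CD3G and CD8A were not called against 0 h at either time. The B cell marker CD79B read 4.10 to 4.51. The part of these shifts in the members' changes at 7 h and 24 h was not tested.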

How the data were processed

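Deposited values were linear probe set intensities, for which the submitters' processing notes name affy and RMA without versions. They were put on a log2 scale here, with no further normalization. After 124 array controls were left out, 23999 probe sets were tested. The platform annotation gave 1 gene for 10069 of them, several for 198 and none listed for 13732, and 9961 of the 10069 matched the RefSeq gene table of Sscrofa11.1, which renamed 0. That annotation was used for names and neighbouring genes, and no coordinates or sequences are printed.

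Duplicate arrays were averaged to 12 animal-by-time means, and limma (version 3.58.1, R 4.3.3) was fitted with time and animal terms, 6 residual degrees of freedom and Benjamini-Hochberg adjustment over all probe sets. Deviations of an animal's means correlated between times at 0.338 to 0.732, so the animal, inferred from array order, was kept as a block. The number of arrays limits the precision. Nothing in the labels ties duplicate cultures to more than the same pig, so n is 3 pigs. The rule for named genes took fixed immunoproteasome, activator and E2 genes, the 3 largest changes in each role class, the 5 largest called rises and falls at each time and the 3 smallest p-values between animals; other members are described to account for all. The members, lists and the array order were chosen with earlier results of these data known. Alternatives covered the animal term, use of duplicates, normalization, dim probe sets, intensity trend, probe set choice, animals left out, times in the fit and the deposited labels.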

Additional observations from a re-analysis of the deposited data

Results flagged for a closer look

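In 4 of 256 combinations of a member and a time by array order, 1 array stood apart from the others of its time by Dixon's criterion. A share of 5% of groups would be about 12.8, but that share holds for independent arrays. Arrays here came mostly as duplicate cultures of the same animal, so 12.8 is not a measure of what chance would flag. PSME4 read 8.887 on array 20, the second 24 h array of animal 1, and 8.739 to 8.78 on the other 24 h arrays. UBE2H read 10.196 on array 1, the first 0 h array of animal 1, and 10.415 to 10.528 on the others. PSMC3 read 10.613 on array 16 at 7 h, with the others at 10.702 to 10.751. UBE2B read 11.339 on array 9 at 2 h, with the others at 11.452 to 11.503.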

How the results depend on the processing

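Of 192 differences of the 64 members from 0 h, 78 were called, 44 of these were called with each animal left out and 41 under every alternative run for single genes, which left out the deposited labels and the fits to only the times compared. The direction of 1 call reversed, that of UBE2O at 7 h, which was 0.0824 with the median probe set in place of the brightest; the cause was not tested. Without the animal as a block (the paired term), 2 of 64 members were called at 2 h in place of 4. The unaveraged arrays gave 10 at 2 h and 18 between animals. Fits to only the times compared gave 7 at 2 h and 13 from 7 h to 24 h in place of 32. Using the first array of each pair gave 21 from 7 h to 24 h, and using the second gave 3 between animals in place of 5. By the deposited labels 0 members were called in each time comparison and in the test over all times, and 35 between animals. With 1 animal left out, calls ran from 0 to 2 at 2 h, 20 to 31 at 24 h, 13 to 21 from 7 h to 24 h and 0 to 4 between animals. All other counts stayed within 1.5 times the main count, and the cause of these shifts was not tested.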
